A study of Danio rerio with 5 samples.

Results

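The T-box genes of early mesoderm were compared in zebrafish embryos between sphere stage and 30% epiboly. The set was chosen by name: 6 symbols were listed (ta, tb, tbx16, tbx6, tbx6l and eomesa), and a row belonged to it when the deposited gene table carried one of them as its name. This gave 4 genes, ta, tbx16, tbx6 and eomesa, of 22656 in the table, and all 4 were among the 12007 with enough counts to be tested. The names tb and tbx6l matched no row and were not analysed here under those names. Total RNA was sequenced from Tübingen embryos without chorion and yolk at sphere stage (4 hours post-fertilisation, hpf; called MBT for the mid-blastula transition; 3 libraries) and at 30% epiboly (5.3 hpf, post-MBT; 2 libraries). The labels name no mutation, injection or drug in either group, and strain and preparation were shared by both. The 3 MBT libraries are lettered A to C and the 2 post-MBT libraries A and B, since the count columns carry a stage but no replicate number of the labels.

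T-box genes encode transcription factors that bind DNA through a shared domain, and several of them specify mesoderm and endoderm in vertebrates. In the zebrafish, Eomesodermin A is supplied to the egg by the mother and takes part in the induction of endoderm and mesendoderm. Brachyury (ta, also called no tail) and Tbx16 (spadetail) are made by the embryo in the margin of the blastula, under Nodal and FGF signals, and are needed for notochord and tail and for the movement of trunk mesoderm, respectively. The name tbx6 has moved between genes. In the RefSeq gene table (assembly GRCz12tu) the symbol tbx16l carries tbx6 and tbx6l as synonyms and lies on chromosome 5, as the tbx6 row here does, and 6 of the 10 genes nearest to that row also lie within 20 genes of tbx16l. The somite gene now called tbx6 in RefSeq is the row tbx24 here (chromosome 12; 8 of 10 neighbours). The tbx6 values below therefore concern the gene also known as tbx6l or tbx16l and not the fused somites gene.

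Between the stages, ta, tbx16 and tbx6 rose and eomesa fell. All 4 were called by edgeR's quasi-likelihood test (adjusted p under 0.05, Benjamini-Hochberg over 12007 genes). Calls are common in this comparison, since 31% of all tested genes rose, 31.8% fell and 62.8% did one or the other, so a call by itself does not set these genes apart. Where ta and tbx16 stood in the order of all genes differed from that background: ordered by adjusted p they were number 1 and number 2 of 12007, while eomesa was number 498 and tbx6 number 1696. By size of rise ta was number 47, tbx6 number 190 and tbx16 number 359, and by size of fall eomesa was number 1150. For none of the 4 did the MBT libraries overlap the post-MBT libraries, which was also true of 73.9% of all tested genes (36.3% higher and 37.6% lower after the MBT). The 4 calls held in all 12 alternative fits, in which 17.4 to 32.4% of all genes tested rose and 16 to 46.4% fell.

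The Brachyury gene ta lies on chromosome 19 (14325345 to 14329397, minus strand, build D_rerio_Sep_2014; 2211 exonic bases). It had 27, 30 and 29 counts in MBT A, B and C and 1349 and 1046 in post-MBT A and B. As CPM (counts scaled to a common library size, with edgeR's TMM factors for composition) these were 9.74, 6.88 and 10.1, and then 434 and 389. The MBT libraries lay close together at a low level, and both later libraries were far above them. The rise was 47.5-fold, a log2 fold change of 5.57 ± 0.12 (SE; edgeR adjusted p = 1.73e-54). Summing the counts of each stage gave a ratio of 48.0, with an exact 95% counting interval of 38.7 to 60.3. Counting error alone was 18.3 to 19.3% in the MBT libraries, against 2.72 and 3.09% later.

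The gene tbx16 lies on chromosome 8 (51749767 to 51767059, minus strand; 2544 exonic bases). It was counted 427, 552 and 368 times in the MBT libraries and 2884 and 2399 times in the post-MBT libraries, or 154, 127 and 128 CPM and then 928 and 892 CPM. In contrast to ta it was well above detection in every MBT library. It rose 6.71-fold (log2 fold change 2.75 ± 0.08, edgeR adjusted p = 2.16e-47), and the summed counts gave a ratio of 6.77 (6.37 to 7.19).

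The tbx6 row lies on chromosome 5 (41680452 to 41697180, plus strand; 2847 exonic bases) and was the weakest of the set. It had 1, 3 and 5 counts in MBT A, B and C and 39 and 25 in post-MBT A and B, or 0.361, 0.688 and 1.74 CPM and then 12.6 and 9.29 CPM. The exact 95% counting intervals of the MBT libraries overlapped one another (0.00914 to 2.01, 0.142 to 2.01 and 0.566 to 4.07 CPM), and those of the post-MBT libraries (8.93 to 17.2 and 6.01 to 13.7 CPM) lay above all of them. The rise was 11.7-fold (log2 fold change 3.55 ± 0.45, edgeR adjusted p = 1.28e-10), with a ratio of summed counts of 12.3 and a wide interval of 6.08 to 28.0. Leaving out MBT C, the MBT library with the most tbx6 counts, moved the log2 fold change to 4.21.

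The Eomesodermin gene eomesa, on chromosome 19 as well (861014 to 869697, minus strand; 3022 exonic bases), went the other way. Its counts were 358, 500 and 352 in the MBT libraries and 128 and 125 in the post-MBT libraries, or 129, 115 and 123 CPM and then 41.2 and 46.4 CPM. The highest later library was below the lowest MBT library by more than the counting error of either (exact 95% intervals of 38.7 to 55.4 and 105 to 125 CPM). The fall was 2.78-fold (log2 fold change -1.48 ± 0.12, edgeR adjusted p = 4.73e-19), and the summed counts gave a ratio of 0.361 (0.314 to 0.413). These are levels in bulk RNA of embryos without chorion and yolk. In bulk RNA, fewer cells that express a gene cannot be told apart from less of its RNA per cell, and the same holds for each rise above.

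**Figure D1:**
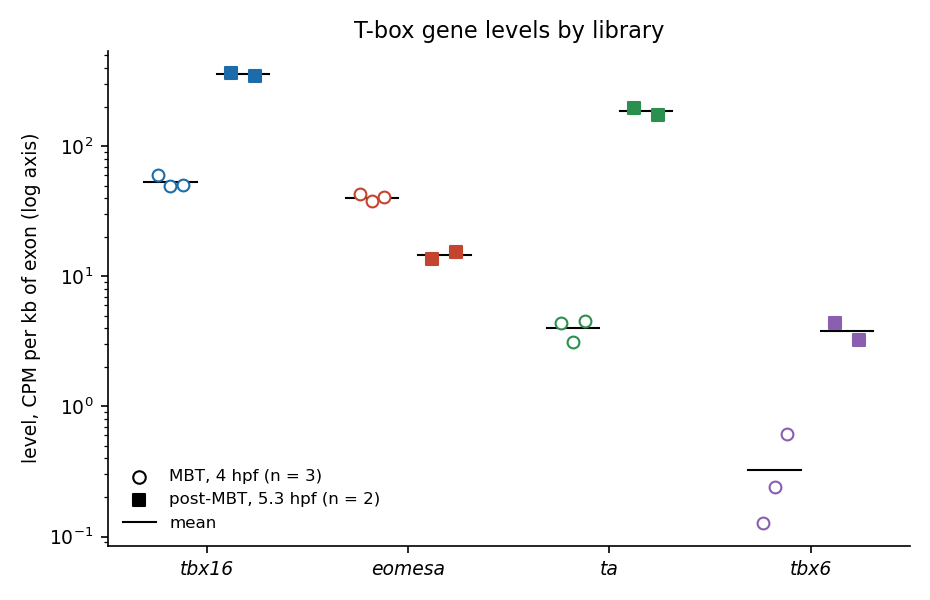
Level of each gene in CPM per kb of exonic length (log axis), 1 point per library, with open circles for MBT, filled squares for post-MBT and a line at the mean. The filled squares lie above the open circles for tbx16, ta and tbx6 and below them for eomesa, and the open circles of tbx6, at 1 to 5 counts per library, scatter the most.

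To compare levels between genes, CPM was divided by exonic length. At the MBT the order of per-length levels was tbx16 (53.6 ± 6.06 CPM per kb, SD, n = 3), eomesa (40.4 ± 2.39), ta (4.03 ± 0.80) and tbx6 (0.327 ± 0.253). No neighbours in that order overlapped: the lowest tbx16 library was at 49.8 and the highest eomesa library at 42.7 CPM per kb. On CPM without length the ranges of tbx16 and eomesa overlapped, with tbx16 in MBT B at 127 and eomesa in MBT A at 129. Within each MBT library tbx16 was still the higher (154 and 129 CPM in A, 127 and 115 in B, 128 and 123 in C). After the MBT the order was tbx16 (358 ± 10.3, n = 2), ta (186 ± 14.6), eomesa (14.5 ± 1.23) and tbx6 (3.84 ± 0.81), again with no overlap between neighbours. Thus ta and eomesa changed places. Among the 12007 tested genes, per-length levels put ta at rank 7904 at the MBT and at rank 171 after it. The rank of tbx16 was 595 and then 68, that of tbx6 11775 and then 7816, and that of eomesa 904 and then 3442.

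**Figure D2:**
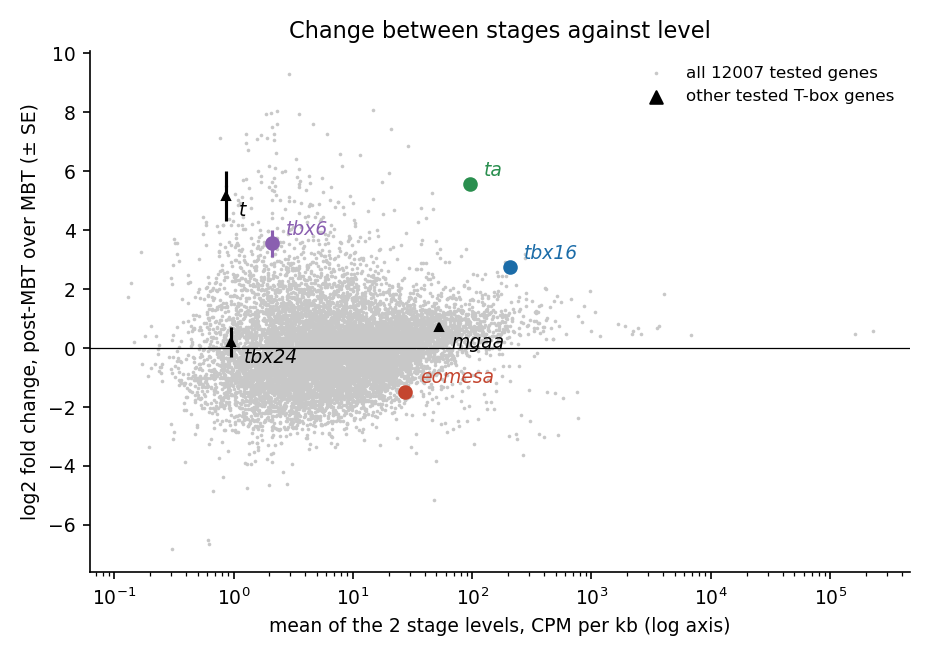
Log2 fold change (post-MBT over MBT, ± SE) against the mean of both stages' per-length levels (CPM per kb, log axis) for all 12007 tested genes in grey. The coloured points are the 4 genes of the set and the triangles the other tested T-box genes. Among the 4, ta and tbx16 stand at the upper right edge of the cloud, eomesa lies below 0, and tbx6 lies furthest to the left.

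Added together, the per-length levels of the 4 genes were 108, 91.1 and 96.2 CPM per kb in MBT A, B and C and 579 and 545 in post-MBT A and B. The sum was thus 5.72 times higher after the MBT (98.4 ± 8.59 against 562 ± 24.4). Of the net difference of 464 CPM per kb, tbx16 made up 65.6% and ta 39.3%, tbx6 added 0.757%, and eomesa contributed -25.9 CPM per kb. The gene with the largest fold change, ta, was therefore not the one that added most to the sum.

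In percentage points, the make-up of this sum differed little among libraries of a stage, though the small tbx6 share varied widely for its size. The share of eomesa was 39.6, 41.7 and 42.2% in the MBT libraries and 2.35 and 2.82% in the post-MBT libraries. The share of ta was 4.09, 3.42 and 4.75% and then 33.9 and 32.3%, a gain of 29 percentage points. The share of tbx16 was 56.2, 54.6 and 52.4% and then 63.0 and 64.3%, a smaller shift, also without overlap. In contrast, the share of tbx6 stayed under 1% in every library and overlapped between the stages (0.117, 0.265 and 0.636%, then 0.761 and 0.599%). For ta, tbx16 and eomesa the 2-sided exact permutation p was 0.1 (0.133 adjusted over the 4 genes), the smallest that the 10 ways to split 5 libraries allow, and for tbx6 it was 0.3.

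**Figure D3:**
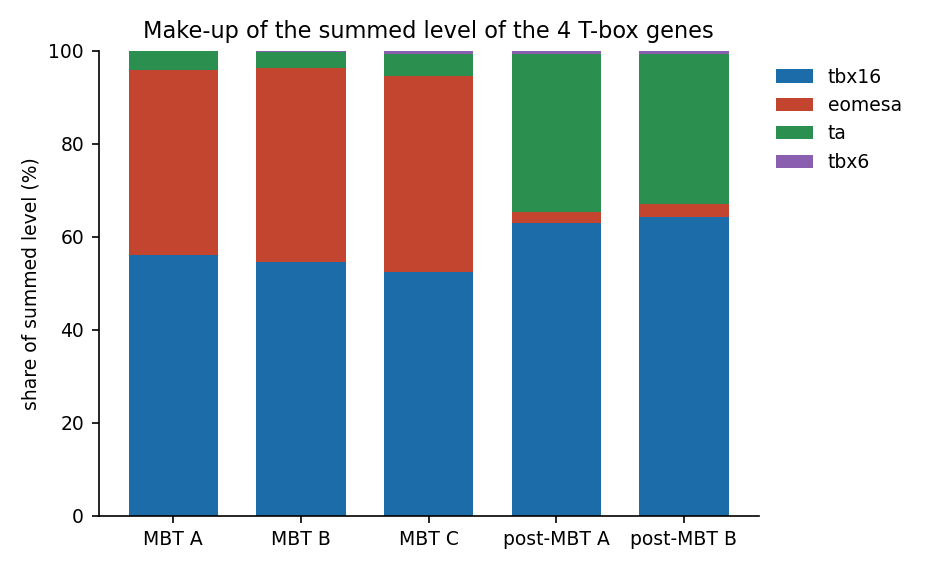
Share of each gene in the summed per-length level of the 4 T-box genes (percent of CPM per kb), 1 bar per library. The eomesa part is about as high as 40% of each MBT bar and under 3% of each post-MBT bar, the ta part grows from under 5% to over 32%, and tbx16 holds at least 52.4% of every bar.

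Ratios between the genes do not depend on how libraries are scaled, because both counts come from the same library. There were 1.42, 1.31 and 1.24 per-length units of tbx16 for each of eomesa in MBT A, B and C, and 26.8 and 22.8 in post-MBT A and B. The ratio of ta to eomesa went from 0.103, 0.0820 and 0.113 to 14.4 and 11.4, a difference of 7.03 on the log2 scale. The ratio of ta to tbx16 went from 0.0728, 0.0625 and 0.0907 to 0.538 and 0.502, so that ta rose more than tbx16 in these libraries. Each of these 3 ratios, and that of tbx6 to eomesa, had no overlap between stages and an exact permutation p of 0.1 (0.15 adjusted over the 6 pairs compared). The ratio of ta to tbx6 gave p = 0.2, and that of tbx16 to tbx6, from 82.4 to 478 at the MBT and 82.8 and 107 after it, overlapped (exact permutation p = 0.4). With a smallest possible p of 0.1, this test cannot decide whether tbx6 and tbx16 differed in rise. The 1 to 5 MBT counts of tbx6 also leave its ratios imprecise.

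Of the rest of the T-box family, most was close to silent. The list of other family members named 25 symbols, of which 17 had a row and 2 could be tested. The large gene mgaa (chromosome 17), whose product carries a T-box and a helix-loop-helix domain that pairs with Max, had 1060, 1791 and 1284 counts in the MBT libraries and 2013 and 1924 in the post-MBT libraries. It rose from 414 ± 32.5 to 682 ± 47.4 CPM (log2 fold change 0.72 ± 0.07, edgeR adjusted p = 5.69e-15), with no overlap. The somite gene tbx24 had 8, 13 and 6 and then 8 and 10 counts and was not called (log2 fold change 0.21 ± 0.50, edgeR adjusted p = 0.732). Its sign turned to -0.21 with library totals and to -0.05 without post-MBT B. The other 15 had at most 13 counts in any library. Of these, tbx5a, known for limb and heart, had 1, 0 and 1 counts and then 6 and 10, a ratio of 13.8 (exact 95% counting interval 3.25 to 124). It was too sparse for the edgeR filter but was called with no filter (edgeR adjusted p = 8.83e-04) and with the DESeq2 Wald test (adjusted p = 0.0314).

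A row named t lies on chromosome 13 (4310271 to 4325889), and 8 of its 10 nearest genes also lie within 20 genes of tbxtb, the second Brachyury gene, in RefSeq. It did not bear a listed name, and was added after its values were seen. It had 1, 0 and 0 counts in the MBT libraries and 13 and 16 in the post-MBT libraries, or 4.18 and 5.95 CPM. The ratio of summed counts was 50.03, with an interval of 8.30 to 2043, and edgeR called the rise (log2 fold change 5.18 ± 0.85, adjusted p = 1.67e-07). The fitted change was 7.03 without MBT A, which holds the only MBT count, and without post-MBT B the gene was too sparse to be tested. After the MBT its per-length level was 1.70 ± 0.42 CPM per kb, against 186 ± 14.6 for ta. Of all T-box rows together, the 4 genes of the set held 72.3, 67.9 and 67.6% of the per-length level in the MBT libraries and 89.3 and 87.5% in the post-MBT libraries, and most of the remainder was mgaa (40.1 ± 3.15 and then 66.0 ± 4.59 CPM per kb).

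The sources used here do not state that strand was used in counting, so reads of overlapping genes on opposite strands may not be separable, and the surroundings of each gene were examined. Nearest to ta were nudc, not called (log2 fold change 0.08 ± 0.17), and arid1ab, which rose by 0.51 ± 0.07. Beside tbx16 were klhl22, not called (-0.77 ± 0.57), and cabin1, which rose by 0.42 ± 0.11. The tested neighbour of tbx6, eral1, fell (-0.97 ± 0.25). The genes on either side of eomesa had at most 3 counts over a stage. Beside the row t were pde10a, not called (0.62 ± 0.35), and prr18, too sparse to be tested. The counts of prr18 were 0 in each MBT library and 6 and 10 in the post-MBT libraries. Of 3 rows that overlapped t, si:ch211-130h14.4 was on the same strand, with 5, 2 and 0 and then 1 and 1 counts. The part of these rows in the t counts was not tested. None of the tested neighbours named here changed as much as the T-box gene beside it. Some rows of the table are spans of many megabases that cover other genes, such as ctnnb2 on chromosome 19, which covers both ta and eomesa and was not called (-0.09 ± 0.09). For tbx6 one such row, mat2ab on the opposite strand, had 5, 2 and 5 and then 22 and 8 counts. These were lower than the counts of tbx6 in both post-MBT libraries and higher in MBT A. Its part in the tbx6 counts was not tested. In its comparison of exons, the authors' deposited table lists an exon for 815 genes, whether or not it passed their test, and for none of the 4 T-box genes.

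In the authors' deposited table, the log2 ratio is written as 4 hpf over 5.3 hpf, so its sign is the opposite of the values above. It was -5.49 for ta, -2.74 for tbx16 and 1.45 for eomesa, each within 0.1 of the edgeR value in size. For tbx6 the authors' deposited table gives -2.93, smaller than the edgeR value of 3.55 in size. The direction was the same for all 4.

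**Figure D4:**
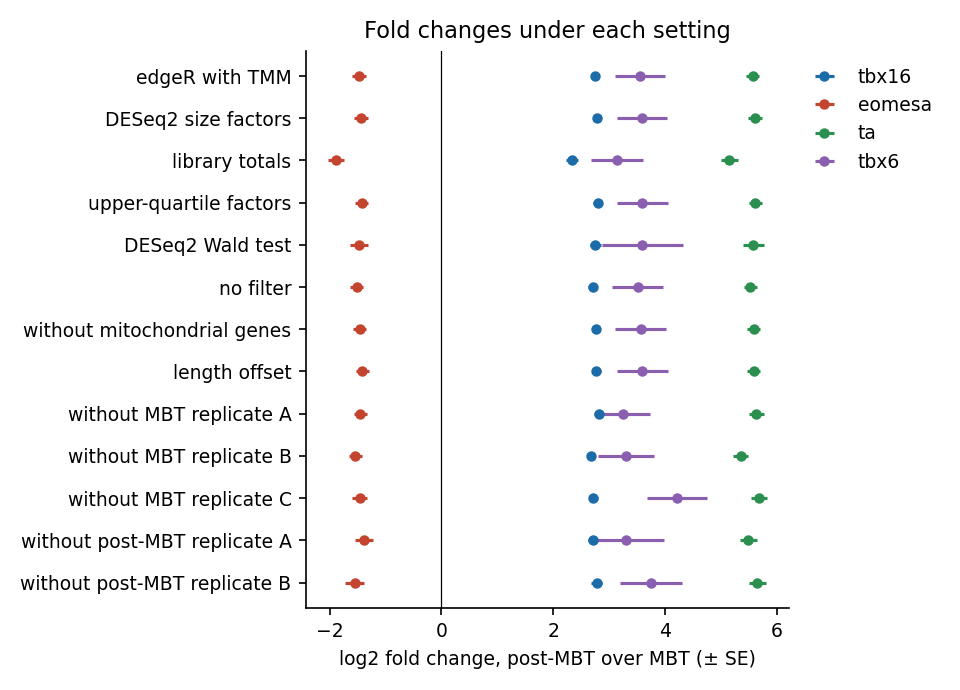
Log2 fold change (post-MBT over MBT) of the 4 genes, with bars of ± SE, in the edgeR fit with TMM factors and in 12 alternative fits, 1 line per fit. In every fit ta, tbx6 and tbx16 stay to the right of 0 and eomesa to the left; library totals move all 4 to the left, and tbx6 moves most without MBT replicate C.

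Nodal, FGF, Wnt and BMP signals, listed as inputs to T-box genes, were described from lists of pathway members. Whether they acted on the 4 genes in these embryos was not tested. For Nodal, the TGF-beta type signal that induces mesendoderm, 6 of 13 tested genes rose and 5 fell (median log2 fold change 0.67, against -0.04 over all tested genes, of which 31% rose and 31.8% fell). The co-receptor gene tdgf1 rose from 70.4 ± 9.30 to 156 ± 0.493 CPM and the DNA-binding partner of the Smads, foxh1, from 259 ± 6.02 to 439 ± 9.90 CPM. The other 4 rises, named after their values were seen, were larger in fold and lower in level. They were the ligand genes ndr2 (log2 fold change 3.68 ± 0.43) and ndr1 (2.73 ± 0.33) and the feedback inhibitor genes lft2 (3.19 ± 0.33) and lft1 (2.64 ± 0.29). The falls were the receptor gene acvr2aa, from 84.9 ± 1.46 to 28.9 ± 5.86 CPM, the signal transducer genes smad2 (log2 fold change -0.66 ± 0.09), smad3a (-2.10 ± 0.71) and smad3b (-1.19 ± 0.43), and the maternal ligand gene gdf3 (-0.28 ± 0.10). Of these, smad3a, smad3b and gdf3 lost their call with the DESeq2 Wald test, where 2 Nodal genes fell (19.1% of all genes tested that way rose and 16% fell). The call of smad3b was also lost without MBT B, and that of gdf3 without MBT C. Fits without post-MBT A or without post-MBT B rest on a single later library, so their calls for this list are not given here.

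For FGF, which keeps ta and tbx16 on in the margin, 14 of 16 tested genes rose and 1 fell (median log2 fold change 2.51). Over all tested genes 31% rose and 31.8% fell. The nuclear target genes etv4 and etv5b rose by 3.22 ± 0.12 and 1.77 ± 0.10 on the log2 scale and the feedback phosphatase gene dusp6 by 2.33 ± 0.10, while etv5a fell (-0.94 ± 0.12). For Wnt and BMP signals 9 of 11 rose and none fell (median 1.004). The smallest adjusted p-values were those of wnt11 (log2 fold change 3.42 ± 0.16), bmp4 (6.19 ± 0.32) and bmp7a (2.14 ± 0.12), and wnt3a, also named after its values were seen, rose by 4.19 ± 0.80. With library totals 6 of them rose and 2 (ctnnb2 and tcf7l1b) fell, on a scale where 18.1% of all tested genes rose and 46.4% fell.

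Genes listed as targets and partners of the T-box factors were described in the same way. Of the genes listed for presomitic mesoderm and tailbud, 19 of 20 tested rose and none fell. Over all tested genes 31% rose and 31.8% fell. The median log2 fold change of this list was 4.52, which lies between the values of tbx6 and ta. The smallest adjusted p was that of pcdh8, which encodes a protocadherin, at 2.27 ± 0.977 and then 107 ± 2.35 CPM. Next were the Notch ligand gene dlc (3.05 ± 0.259 to 102 ± 9.65 CPM) and the actin-bundling gene fscn1a (149 ± 7.79 to 514 ± 26.3 CPM). A further 10 genes of this list were too sparse to be tested, among them the tailbud regulator msgn1 with 2 counts over the MBT libraries and 11 after it. Of notochord genes 3 of 4 tested rose. They were the forkhead genes foxa3 (3.66 ± 0.13) and foxa2 (3.94 ± 0.37) and the homeobox gene noto, needed for notochord, which went from 9.42 ± 2.11 to 36.4 ± 3.63 CPM.

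On the list for endoderm and mesendoderm, where Eomesodermin A acts, 12 of 15 tested genes rose and 2 fell (median log2 fold change 3.66). This list was not restricted to endoderm, since its zic and otx genes are also known as neuroectoderm factors. Over all tested genes 31% rose and 31.8% fell, and eomesa itself fell. The homeobox gene mixl1 rose from 9.59 ± 1.05 to 203 ± 4.80 CPM. The zinc-finger gene zic2b went from 135 ± 4.36 to 626 ± 5.84 CPM, and foxa3, shared with the notochord list, from 13.7 ± 0.673 to 175 ± 14.6 CPM. The homeobox gene otx1b fell from 104 ± 5.05 to 33.8 ± 0.501 CPM. The fall of the homeobox gene mxtx2 (-0.57 ± 0.25) was called in 4 of the 12 alternatives, and its call was lost without MBT A, without MBT C or without post-MBT A. These lists were written with earlier results of these data known, and the counts are a description.

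**Figure D5:**
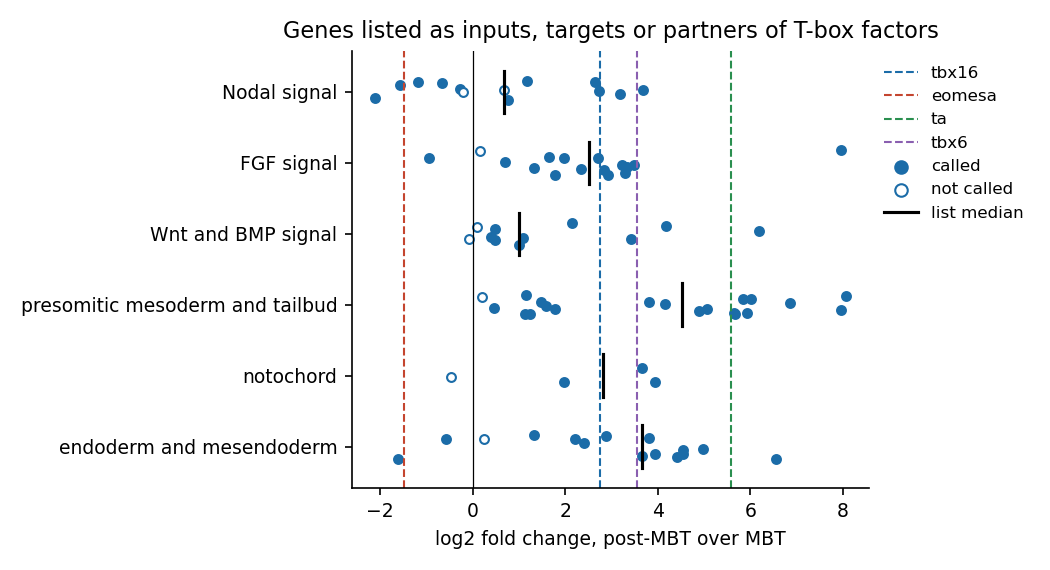
Log2 fold change (post-MBT over MBT) of each tested gene on the 6 lists of signals, targets and partners, filled where called and open where not, with a black line at the list median; the vertical scatter within a list has no meaning. The dashed lines mark the 4 T-box genes; the Nodal list spreads to both sides of 0 and the presomitic list lies wholly to its right.

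The genes whose per-length levels over the 5 libraries were most like each T-box gene were found by Euclidean distance on log2(CPM per kb + 0.1), among 9126 other tested genes with a gene symbol (clone and LOC names left out). Nearest to ta, at a distance of 1.53, was the ventral repressor gene vent (3.48 ± 0.524 to 91.1 ± 5.26 CPM per kb), followed by mixl1 (1.80) and by notum1a (2.13), which encodes an enzyme that inactivates Wnt. Among those nearest to tbx16 were the cyclin gene ccnd1 (0.448) and the apolipoprotein gene apoeb (0.585), and nearest to tbx6 were cd44a (0.714), abtb2b (0.832) and grk4 (0.897). Nearest to eomesa was mylipa (0.271; 43.1 ± 0.831 to 13.4 ± 0.887 CPM per kb), followed by otx1b (0.278) and the phosphatase gene ptenb (0.313). With 2 stages and 5 libraries, such a match says only that level and change were alike.

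Total counts per library ran from 2488983 to 3701401, and mitochondrial genes took 43.0 to 50.6% of them in the MBT libraries and 51.4 and 51.5% in the post-MBT libraries. Of 10 markers of differentiated tissues with a row, none passed the filter on low counts, and no library had more than 10 counts of any. Summed, they were at 4.9 to 5.8 CPM in the MBT libraries and at 5.8 and 4.1 CPM in the post-MBT libraries. Being low at both stages, they cannot tell the stages apart. Markers of the enveloping layer, the outer epithelium, rose in 10 of 11 tested cases and none fell (all tested genes: 31% and 31.8%). Their sum was 325 to 350 CPM in the MBT libraries and 1282 and 1300 CPM in the post-MBT libraries, and cyt1 and cyt1l were at 0 at the MBT. Without mitochondrial genes the log2 fold changes of ta, tbx16, tbx6 and eomesa were 5.59, 2.76, 3.57 and -1.46. Leaving those genes out mainly changes how libraries are scaled, so this fit cannot show their part in the T-box changes. The part of the mitochondrial share and of tissue make-up in the T-box changes was not tested.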

How the data were processed

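Libraries were made from 5 ng of total RNA with random hexamer priming and tagmentation, per the labels' protocols. Novoalign 2.8 and DESeq2 are named, with no role, per the submitters' processing notes. The authors deposited raw counts per gene (alignments that overlap the gene by at least 1 base, pairs counted once, per the file headers), exonic length and their own log2 ratio. The authors' deposited score is log10 of an adjusted p times minus 10, for genes and for exons. The handling of reads with several matches is not stated. A further 10 columns of per-library values were not used.

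Counts were tested with edgeR 4.0.16 in R 4.3.3 (filterByExpr with minimum count 10, TMM factors, robust quasi-likelihood fit, 3 MBT against 2 post-MBT libraries), with SE taken as the log2 fold change over the root of the F statistic. Levels are mean ± SD. The script was tested on simulated data. Alternatives were DESeq2 1.42.0, other scalings, no filter, no mitochondrial genes, a length offset and each library left out. Shares and ratios were tested by exact permutation (Python 3.11.15). Libraries of a stage were compared pairwise by chi-square, whose values of 1.28 to 5.34 per degree of freedom were above sampling noise, so each counted as 1 replicate. Nothing in the labels ties libraries to separate clutches of embryos, and the p-values then reflect only library spread, which may be technical. Counting intervals cover counting error only. Members, lists and the rule for named genes (all members, tested family genes, the 3 smallest adjusted p and the falls of each list, and the 3 most alike genes) were chosen with earlier results of these data known. Some genes that these rules pick are not reported here. A planned search of promoters and comparison of proteins was not run, since no sequences were used here.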

Additional observations from a re-analysis of the deposited data

How the results depend on the processing

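The directions and calls of ta, tbx16, tbx6 and eomesa held in all 12 alternative fits, 3 up and 1 down each time. Their log2 fold changes ranged from 5.15 to 5.68, 2.33 to 2.82, 3.14 to 4.21 and -1.89 to -1.39. Library totals lowered the median over all genes by 0.41 and with it these values. The differences in share and in ratio kept their sign in all 7 alternatives each. Of the genes on the lists of family, signals and targets, 61 rose and 8 fell, where 31% of all tested genes rose and 31.8% fell. With library totals 57 rose and 11 fell (all tested genes: 18.1 and 46.4%). With no filter 68 rose and 8 fell (17.4 and 17.3%). With the DESeq2 Wald test 63 rose and 4 fell (19.1 and 16%). Leaving out 1 MBT library gave 60 to 63 rises and 6 to 7 falls (30.7 to 30.9% and 30.7 to 31.8%). The sign of tbx24, never called, turned with library totals (-0.205) and without post-MBT B, in a range of -0.052 to 0.464 over single left-out libraries; the cause was not tested. The depth limits tbx6, t and tbx5a, at 0 to 5 counts per MBT library. No paired analysis was possible because the count columns carry no replicate numbers of the labels.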
